A study of Bos taurus with 46 samples.

Results

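The cluster of miR-183, miR-96 and miR-182, with miR-1271, which shares its seed with a cluster member, was followed in bovine plasma through the oestrous cycle and early pregnancy. The members were the rows named bta-miR-182, bta-miR-183, bta-miR-96 and bta-miR-1271, which are 4 of the 870 bovine and human miRNA names in the table. They were chosen by name, as a family, from miRNAs whose levels in these libraries were already known, so their levels and differences are given as a description, and nothing rests on a test of them. Plasma small RNA was sequenced in 46 libraries, and the values are read counts and reads scaled to the mapped reads of the library (RPMM, the study's scaling to 1000000 mapped reads).

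All animals were Holstein-Friesian heifers in the second year of life, synchronised with a progesterone insert, buserelin and cloprostenol. The pregnant heifers had been inseminated and were found pregnant by ultrasound. They were sampled on Day 16 (P16; 10 heifers used) and Day 24 (P24; 11 heifers) of pregnancy. The 8 non-pregnant heifers were sham-inseminated. Their groups NP0, NP8 and NP16 are the cycle days 0, 8 and 16, and NP is the average of these 3 libraries per heifer. The same pregnant heifers gave P16 and P24, and heifers are called by their number in the labels. The P16 library of heifer 28 entered the filter on low values but no level or comparison. In it 33.1% of mapped reads were miRNA, against 52.5 to 80.1% in the other 45 libraries. A few of the 45 also stood apart for single members, above all the P24 library of heifer 24 and the NP0 library of heifer 21, and the main values that rest on them are given with and without them. Plasma was centrifuged again after the first spin to take out cells and platelets, so a level measures miRNA left in the fluid, and its tissue of origin is not labelled. In such bulk samples, fewer cells of a type and less RNA released per cell cannot be told apart.

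A miRNA silences messenger RNAs that pair with it, above all through the seed, a short stretch near its 5′ end. miR-183, miR-96 and miR-182 are cut from a single primary transcript. miR-96 and miR-1271 have the same seed, while the seeds of miR-182 and miR-183 are close to it but not identical. The cluster is best known from sensory organs of mouse and human, where it is abundant in photoreceptors and in hair cells of the inner ear, and seed mutations of miR-96 cause hearing loss. In activated T cells of mouse, miR-182 is induced and lowers the transcription factor FOXO1. In cattle, the cluster has been studied in granulosa and luteal cells of the ovary, again with FOXO1 as a target.

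On the bovine genome UMD 3.1, the cluster lay on the minus strand of chromosome 4. Mature miR-183 mapped to positions 96835969 to 96835991, miR-96 to 96835746 to 96835768, and miR-182 to 96831247 to 96831270. A gap of 200 bases thus separated miR-183 from miR-96, a gap of 4475 bases separated miR-96 from miR-182, and all 3 lay within 4745 bases. In the RefSeq annotation of the later assembly ARS-UCD2.0, the 3 genes lay between NRF1 and UBE2H and overlapped no protein-coding gene. Mature miR-1271 mapped to positions 37163639 to 37163660 on the plus strand of chromosome 7, and its gene overlapped ARL10 and neighboured NOP16 in ARS-UCD2.0. It is therefore not physically linked to the cluster.

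The cluster members differed widely in level, although they come from a single transcript. miR-182 was the most abundant, with a median of 37.2 RPMM over the 45 libraries. Among the 870 names it ranked 179 by median and 165 by mean, and the ranks below are in that order. miR-1271 had a median of 9.19 RPMM (ranks 237 and 224) and miR-183 a median of 3.23 RPMM (ranks 295 and 285). miR-96 had a median of 0 RPMM (ranks 476 and 442). A share of reads depends on how well each miRNA is captured in a library as well as on its amount, so the order is one of read shares.

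Depth limited what could be seen of the rarer members. The 45 libraries held 6.5e+05 to 5.44e+06 miRNA reads, in which miR-182 had 28 to 4012 reads and miR-183 had 2 to 209 reads. The shallowest library, that of heifer 31 on Day 24, held 28 reads of miR-182 (24.8 RPMM, 95% Wilson interval 17.2 to 35.9) and 2 reads of miR-183 (1.77 RPMM, interval 0.487 to 6.47). Such intervals cover counting error only, because reads were not marked by molecule.

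miR-182 was present in every library and similar in all 5 groups apart from single libraries. In P16 heifers its lowest, median and highest levels were 27, 36.4 and 64.7 RPMM (mean 38.8 ± 11.4, SD, n = 10). In P24 heifers they were 20.98, 40.5 and 595 RPMM (mean 88.2 ± 168, SD, n = 11), and 10 of the 11 lay at or under 58.5 RPMM. The mean of this group was set by heifer 24, and without it the mean was 37.5 ± 11.1 RPMM (SD, n = 10).

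In non-pregnant heifers, miR-182 had a lowest, median and highest level of 24.3, 40.9 and 111 RPMM in NP0 (mean 47.7 ± 28.2, SD, n = 8). In NP8 these levels were 28.0, 38.7 and 60.2 RPMM (mean 40.96 ± 11.4, SD, n = 8), and in NP16 they were 28.6, 32.7 and 70.2 RPMM (mean 39.8 ± 14.6, SD, n = 8). By median the order was NP0, P24, NP8, P16 and NP16, and no neighbours in that order differed beyond their spread. The single high NP0 value of 111 RPMM came from heifer 22, whose later libraries held 27.99 RPMM (NP8) and 30.6 RPMM (NP16).

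miR-183 had similar medians in all groups, but it rested on few reads and varied between libraries. Without the Day 24 library of heifer 24, its SD was 53.3% of the mean over 44 libraries, against 38.9% for miR-182. The lowest, median and highest levels of miR-183 were 1.75, 3.34 and 9.63 RPMM in P16 and 0.99, 2.64 and 30.99 RPMM in P24. They were 1.74, 3.35 and 6.79 RPMM in NP0, 1.13, 3.15 and 5.10 RPMM in NP8, and 2.04, 3.13 and 8.52 RPMM in NP16. All groups overlapped, and the 30.99 RPMM again belonged to heifer 24 on Day 24, with the other 10 P24 heifers at 6.34 RPMM or less.

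miR-96 was barely detected. It had reads in 13 of the 45 libraries, 78 reads in all, and 0 reads in the other 32, including all 8 NP16 libraries. A count of 0 allows a level of up to 0.403 to 1.67 RPMM, depending on the depth of the library (3 reads of its mapped reads). It therefore does not show that miR-96 was absent. Of the 78 reads, 49 came from heifer 21 in NP0 (9.46 RPMM, 95% Wilson interval 7.15 to 12.5) and 11 from heifer 24 in P24 (1.63 RPMM, interval 0.911 to 2.92). No other library had more than 4 reads.

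miR-1271, the seed partner of miR-96 from another chromosome, had the larger read share of the pair. Its lowest, median and highest levels were 1.85, 12.4 and 28.7 RPMM in P16 (mean 13.4 ± 8.55, SD, n = 10) and 2.66, 9.37 and 36.5 RPMM in P24 (mean 13.3 ± 9.57, SD, n = 11). In NP0 they were 2.49, 7.84 and 18.3 RPMM (mean 9.54 ± 6.13, SD, n = 8). They were 4.19, 12.1 and 34.3 RPMM in NP8 (mean 16.4 ± 12.7, SD, n = 8) and 2.48, 4.76 and 18.0 RPMM in NP16 (mean 6.32 ± 5.18, SD, n = 8). By median the order was P16, NP8, P24, NP0 and NP16, and each group overlapped all others. Its spread between heifers was wide, with an SD of 64.0 to 82.0% of the mean in the 5 groups.

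**Figure D1:**
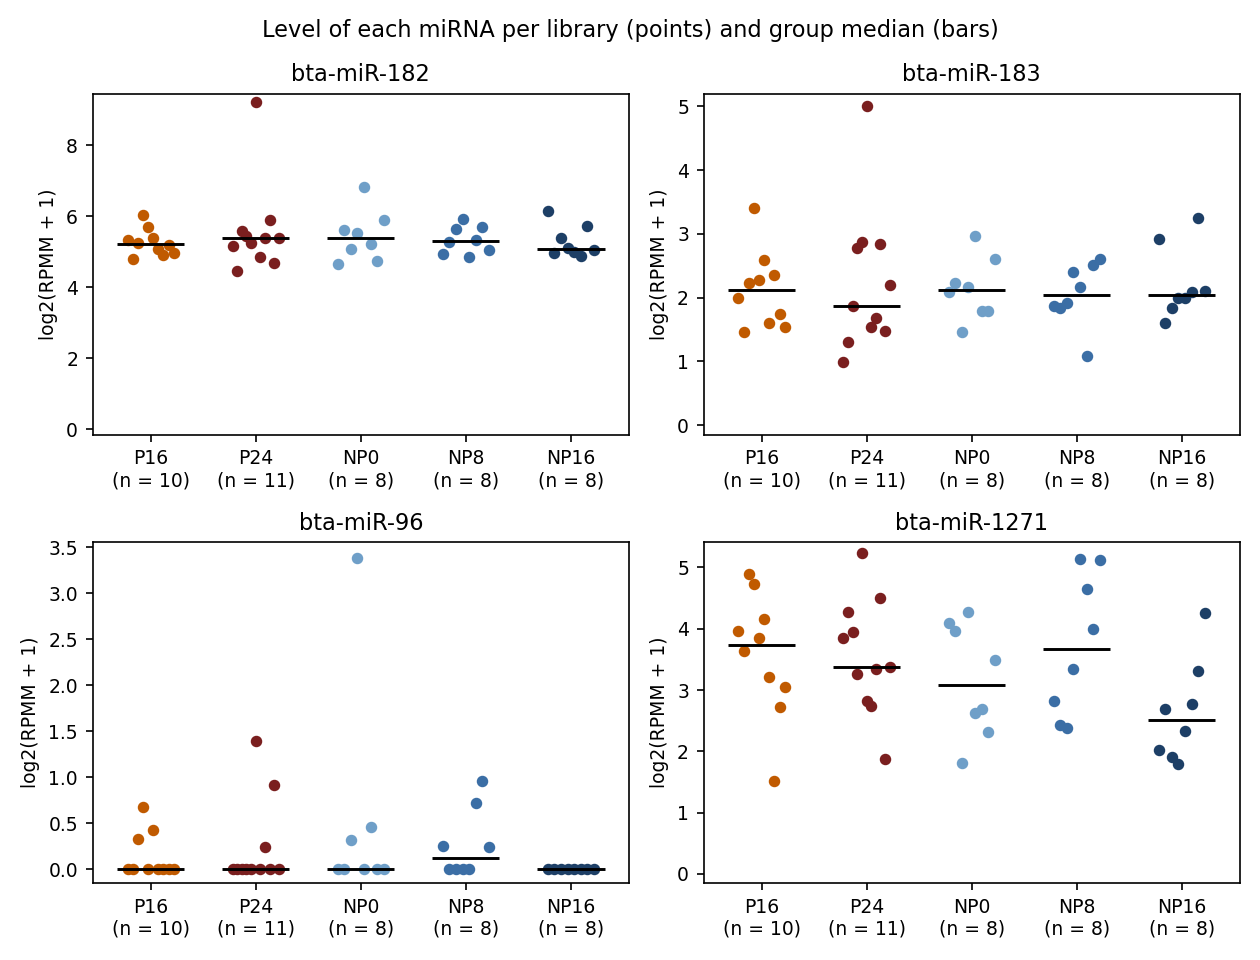
Level of each member in every library as log2(RPMM + 1), by group (P16, P24, NP0, NP8 and NP16, with the number of heifers). Points are libraries and bars are group medians. The P24 library of heifer 24 stands far above the rest for miR-182 (595 RPMM) and miR-183 (30.99 RPMM), the NP0 library of heifer 21 stands above the rest for miR-96 (9.46 RPMM), and miR-1271 is spread widely in all groups.

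Reads of the cluster were divided among its members in a similar way in most libraries. miR-182 held a median of 91.9% of cluster reads (range 77.7 to 97.2% over 45 libraries) and miR-183 a median of 7.09% (range 2.75 to 14.6%). There were thus a median of 13 miR-182 reads for each miR-183 read (range 5.86 to 35.3). The ends of this range rest on few reads: the highest ratio, in heifer 10 on Day 24, rested on 4 miR-183 reads, and the lowest, in heifer 17 on Day 24, on 21.

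In the Day 24 library of heifer 24, where both were high, miR-182 held 94.8% of cluster reads, miR-183 held 4.94% (95% Wilson interval 4.33 to 5.63%) and miR-96 held 0.260%. The ratio of miR-182 to miR-183 was 19.2 there, against a median of 12.9 in the other 44 libraries. Higher ratios were found only in heifer 10 on Day 24, on 4 miR-183 reads, and heifer 25 in NP8, on 7. miR-182 and miR-183 therefore stood high together there, with the interval of the miR-183 share below the median share of 7.09%. The NP0 library of heifer 21 differed in another way. In it 16.3% of cluster reads came from miR-96, while the ratio of miR-182 to miR-183 was 13, equal to the median.

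**Figure D2:**
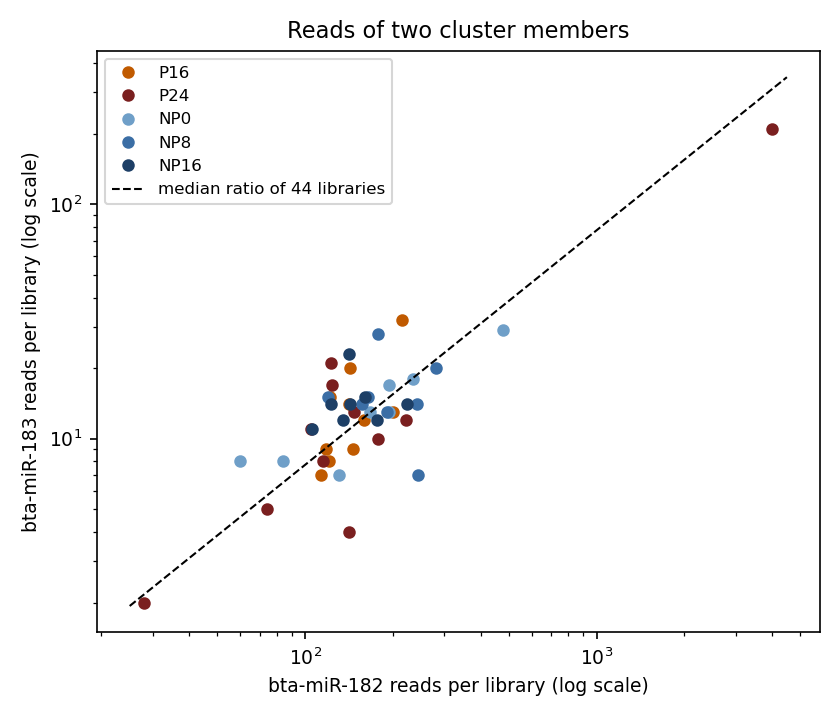
Reads of miR-183 (vertical axis, log scale) against reads of miR-182 (horizontal axis, log scale) in each of 45 libraries, coloured by group. The dashed line is the median ratio of the 44 libraries other than that of heifer 24 on Day 24. That library, at 4012 and 209 reads in the upper right, lies far out along the line and somewhat below it.

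Across the 45 libraries, miR-182 and miR-183 varied together, with a Spearman correlation of 0.64 on log2(RPMM + 1), and of 0.63 after group means were taken away. miR-1271 did not follow them: its correlation was 0.12 with miR-182, 0.26 with miR-183 and 0.19 with miR-96. miR-96, at 0 in most libraries, had a correlation of 0.15 with miR-182 and of 0.04 with miR-183. These are descriptions over libraries that share heifers, depth and normalization.

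The miRNAs most like miR-182, by Spearman correlation over the 45 libraries among the 213 other miRNAs that passed the filter on low values, were both arms of miR-1388 (0.77 for the 3p arm and 0.76 for the 5p arm), miR-378c (0.75), miR-141 (0.75) and human-named miR-210-3p (0.75). miR-141 belongs to the epithelial miR-200 family, and miR-210 is induced by low oxygen. The median correlation of miR-182 with those 213 was 0.19, and without the library of heifer 24 the 5 correlations were between 0.74 and 0.76.

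A different set tracked miR-1271. The closest were miR-148b (0.81), ruminant miR-2285k (0.80), miR-21-3p (0.78), which is the minor arm of miR-21, miR-142-3p (0.77), which is made by blood cells, and miR-345-3p (0.76). The median for miR-1271 was 0.26. Its lowest correlation, -0.68, was with miR-486, which is abundant in red blood cells, so libraries rich in that erythroid miRNA tended to have low shares of miR-1271. All these correlations are between shares of the same mapped reads.

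The Day 24 library of heifer 24 carried the largest miR-182 and miR-183 values of the 45. It held 4012 reads of miR-182, or 595 RPMM (95% Wilson interval 577 to 614), against 20.98 to 58.5 RPMM in the other 10 P24 heifers. This was 15.3 times their median and 10.2 times their highest value. miR-183 stood at 30.99 RPMM (interval 27.1 to 35.5), 12.8 times their median of 2.43 RPMM. miR-96 had 1.63 RPMM, against 0 to 0.89 RPMM in the others, and miR-1271 had 6.08 RPMM, against a median of 11.4 RPMM. All 3 cluster members were therefore above every other P24 library, miR-96 only within counting error (its interval of 0.911 to 2.92 RPMM overlaps that of heifer 31, 0.157 to 5.03 RPMM on 1 read), and miR-1271 was among the lower values.

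The members did not stand apart in the same heifer at its earlier sampling. On Day 16 its plasma held 40.95 RPMM of miR-182, 5.03 RPMM of miR-183, 0.34 RPMM of miR-96 and 16.8 RPMM of miR-1271, all within the range of the other P16 heifers. On that day 3 of its lists were the highest of P16, each close to the next heifer. The epithelial list was at 3732 RPMM, against 1215 to 3687 RPMM in the other P16 heifers. Its liver and gut list was at 72803 RPMM, against 24487 to 69830 RPMM, and its endocrine list at 3285 RPMM, against 1902 to 3067 RPMM.

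Other miRNAs stood apart in that library too. Among the 203 miRNAs at 25 RPMM or more in it, 72 (35.5%) exceeded all other P24 libraries, while each of the other 10 libraries had 4 to 43 such miRNAs. By ratio to the median of the other 10, the largest was miR-133a, a muscle miRNA, at 1150 RPMM (25.8 times). It was followed by human-named miR-3168 at 136 RPMM (18.6 times), and then by miR-182 and miR-183 themselves. Only a pair of miRNAs thus had larger ratios than the cluster.

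Next were miR-34c, which is known from germ cells and ciliated epithelium, at 45.2 RPMM (11.4 times) and miR-106a at 31.9 RPMM (7.98 times). miR-181d and miR-181c, a clustered pair of a family that acts in developing T cells, were at 135 RPMM (7.67 times) and 843 RPMM (4.93 times). miR-184, found in the eye, was at 31.7 RPMM (6.03 times), and miR-363, from the cluster that also holds miR-106a, was at 117 RPMM (5.78 times). These 10 were picked by their ratio, so the ratios describe the library and are no test of it.

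Sums of the marker lists of 4 cell classes were also the highest of P24 there. The counts of rows above all others stand beside the 35.5% of all 203 miRNAs for which this held in that library. The 6 leukocyte miRNAs summed to 46739 RPMM, against 18903 to 37397 RPMM in the other 10, with 5 of the 6 above all others. One of these, miR-155, which is induced in activated lymphocytes, was at 739 RPMM, against 73.7 to 401 RPMM. The 7 muscle miRNAs summed to 1219 RPMM, against 43.7 to 485 RPMM, with 3 of the 7 above all others. Most of that sum was miR-133a, at 1150 RPMM. Higher muscle sums were found outside P24, at 2993 RPMM in NP8 of heifer 35 and 2455 RPMM in NP0 of heifer 22, and miR-182 was at 32.5 and 111 RPMM in these libraries.

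The 6 epithelial miRNAs matched summed to 4085 RPMM, against 1147 to 3093 RPMM, with 5 of the 6 above all others. The 12 neural and sensory rows summed to 5954 RPMM, against 2430 to 3349 RPMM. Most of that sum was miR-128, at 5639 RPMM against 2058 to 2974 RPMM, and 3 of the 12 rows were above all others. The defining neural miRNA miR-124 was at 0 in this library, but it was near the floor in the others too (median 0, highest 0.25 RPMM). Some rows went the other way. miR-211, at 2.82 RPMM, was below all others (4.46 to 14.2 RPMM), and miR-204, at 47.9 RPMM, was under their median of 122 RPMM.

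The sums of the red blood cell, platelet, liver and gut, and endocrine lists were within the range of the other libraries. Of the 6 red blood cell miRNAs, 3 were nevertheless above all others: miR-16a, miR-16b and miR-451. Most of that sum of 188745 RPMM was miR-486, at 137567 RPMM, which was within the range of the others. In the liver and gut list 1 of 4 rows was above all others, and in the platelet and endocrine lists 0 were. miRNA made up 80.1% of its mapped reads, against 57.1 to 75.4% in the other 10, and it held 5.40e+06 miRNA reads, against 6.51e+05 to 3.64e+06. The median ratio over all 203 miRNAs was 1.32. The part of these markers, of depth or of miRNA share in the high cluster values was not tested.

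**Figure D3:**
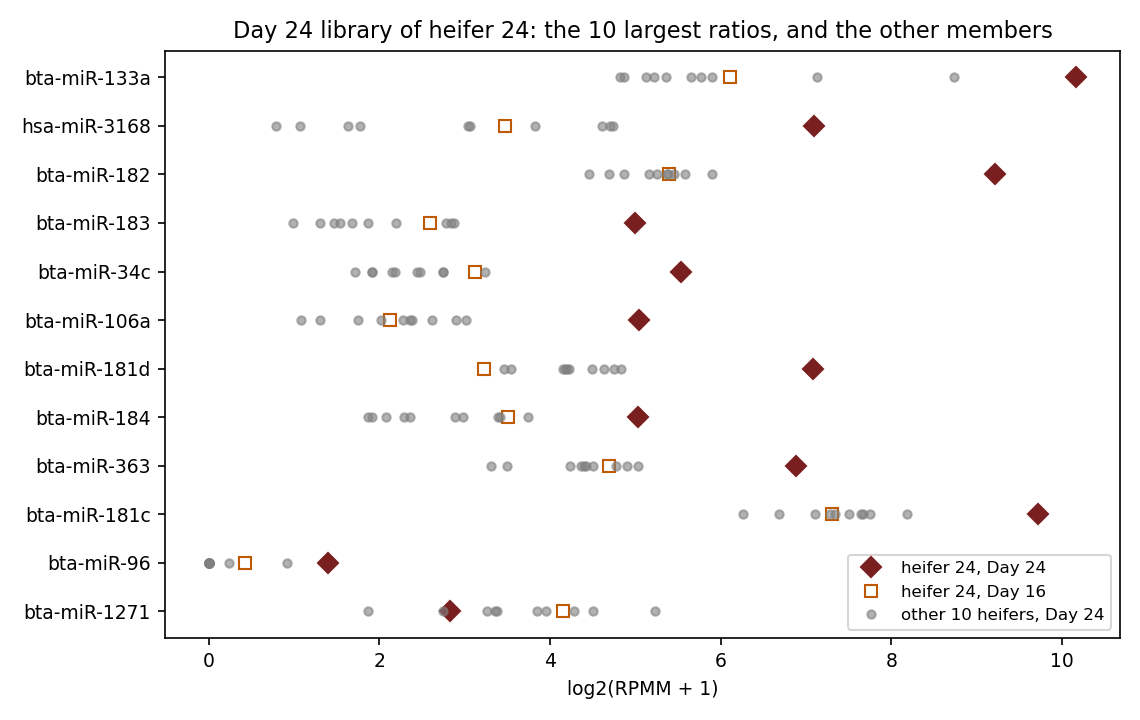
Level, as log2(RPMM + 1), of the 10 miRNAs with the largest ratio in the Day 24 library of heifer 24, and of miR-96 and miR-1271. Diamonds are heifer 24 on Day 24, open squares the same heifer on Day 16, and grey points the other 10 heifers on Day 24. The diamonds of miR-182 and miR-183 lie right of all grey points while the Day 16 squares lie among them, and the diamond of miR-1271 lies within its grey points.

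The highest miR-96 value came from another library, and without the rest of the cluster. The NP0 library of heifer 21 held 49 reads of miR-96 (9.46 RPMM), against 0 to 1.63 RPMM in the other 44 libraries. miR-182 was at 45.2 RPMM and miR-183 at 3.47 RPMM there, near their medians over all libraries, and miR-1271 was at 18.3 RPMM. On Day 8 and Day 16 the same heifer had 0 reads of miR-96.

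A few other miRNAs stood apart in the same library, which were picked after their values were seen. miR-184, known from the eye, was at 525 RPMM, against 0.54 to 34.1 RPMM in the other 44, and that heifer's NP8 and NP16 libraries held 3.42 and 2.73 RPMM. miR-9-5p, abundant in neurons and their precursors, was at 30.5 RPMM, against 0 to 3.11 RPMM. miR-124, the most neuron-specific of these and counted under a name joined for its copies a and b, was at 8.30 RPMM, against 0 to 0.80 RPMM.

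Summed over its 12 rows, the neural and sensory list was at 3241 RPMM in this library. The other 7 NP0 heifers were at 1813 to 3725 RPMM. Most of the sum was miR-128, at 2947 RPMM. The values of miR-9-5p and miR-124, also on the list, were too small to show in it. The platelet list of this library was the highest of NP0, at 67757 RPMM against 17919 to 32465 RPMM. So were its epithelial list, at 2654 RPMM against 1430 to 2514 RPMM, and its endocrine list, at 2777 RPMM against 1187 to 2350 RPMM. Its muscle list was the lowest, at 128 RPMM against 138 to 2455 RPMM. Of 281 miRNAs at 5 RPMM or more, 13 were above every other library, and 2 of them by over 10 times. The part of these markers in the miR-96 value was not tested.

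For the comparisons between groups, a filter on low values dropped names that stayed under 25 RPMM in over 75% of the libraries of each group, and 214 names remained. Of the 4 members, miR-182 passed, in every group. miR-1271 passed only through NP8, where 2 of 8 libraries were at 25 RPMM or more, so the 8 NP8 libraries both let it in and enter its comparisons. miR-183 and miR-96 did not pass, and for them differences of mean log2(RPMM + 1) are given. Fold changes for miR-182 and miR-1271 are on the log2 scale, from counts in edgeR with TMM scaling.

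At a false discovery rate of 0.1 by edgeR's quasi-likelihood test, 0 of these 2 members were called in any of the 7 comparisons, beside 0.935% of the 214 miRNAs for P16 vs NP and 0% for the other 6. DESeq2 and limma called 0 of the 2 in each comparison as well. Of the 214, DESeq2 called 2 for P16 vs NP, 1 for P16 vs NP16, 1 for NP8 vs NP0, 3 for NP16 vs NP0 and 0 for the other 3, and limma called 2 for P16 vs NP and 0 for the other 6. At an unadjusted p under 0.05, edgeR counted 15 of the 214 for P16 vs NP, 7 for P24 vs NP, 15 for P16 vs NP16, 3 for P24 vs P16, 19 for NP8 vs NP0, 5 for NP16 vs NP8 and 12 for NP16 vs NP0. Since the members were chosen with their levels known, nothing is read from these counts.

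Pregnancy was compared with the whole cycle first. In P16 heifers miR-182 was at 38.8 ± 11.4 RPMM, against 42.8 ± 6.51 RPMM in NP (SD, n = 10 and 8), a log2 fold change of -0.10 ± 0.14 (SE). Every NP value lay within the P16 range. miR-1271 was at 13.4 ± 8.55 RPMM in P16, against 10.7 ± 5.16 RPMM in NP, a log2 fold change of 0.29 ± 0.34 (SE). For miR-183 the difference of mean log2(RPMM + 1) was -0.07 ± 0.23 (SE), and for miR-96 it was -0.25 ± 0.26 (SE), or -0.01 without heifer 21. The groups overlapped for all 4 members, and each difference was smaller than the pooled SD between heifers.

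On Day 24 the value of miR-182 depended on heifer 24. With all 11 heifers, its log2 fold change for P24 vs NP was 0.90 ± 0.51 (SE), and without heifer 24 it was -0.14 ± 0.16 (SE). miR-1271 had a log2 fold change of 0.29 ± 0.35 (SE). For miR-183 the difference of mean log2(RPMM + 1) was 0.04 ± 0.36 (SE), and -0.23 ± 0.25 (SE) without heifer 24. For miR-96 it was -0.16 ± 0.28 (SE), or 0.07 without heifer 21. Both comparisons share the NP heifers, and P16 and P24 are the same animals.

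Within pregnancy, miR-182 showed the same dependence. It was higher on Day 24 than on Day 16 in 4 of 10 heifers with both days, and its log2 fold change of 1.01 ± 0.45 (SE) for P24 vs P16 became -0.06 ± 0.18 (SE) without heifer 24. With the heifer as a block in the paired fit it was 0.20 ± 0.33 (SE). miR-183 was higher on Day 24 in 4 of 10 heifers as well. Its unpaired difference of mean log2(RPMM + 1) was 0.11 ± 0.39 (SE), and -0.11 ± 0.30 (SE) without heifer 24. Paired within the 10 heifers, it was 0.17 ± 0.30 (SE). miR-1271 was also higher in 4 of 10 heifers, with a log2 fold change of 0.03 ± 0.36 (SE). Apart from heifer 24, neither day was consistently above the other for any member.

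At the matched day, the fold change of miR-1271 was larger than against the whole cycle, a difference that was not tested. It was at 13.4 ± 8.55 RPMM in P16, against 6.32 ± 5.18 RPMM in NP16 (SD, n = 10 and 8), a log2 fold change of 0.96 ± 0.40 (SE). With each heifer left out in turn the log2 fold change was between 0.75 and 1.32. The groups overlapped: 4 of the 10 P16 heifers were at 8.31 RPMM or less, and heifer 35 reached 18.0 RPMM in NP16. miR-182 had a log2 fold change of -0.14 ± 0.18 (SE), miR-183 a difference of mean log2(RPMM + 1) of -0.11 ± 0.27 (SE), and miR-96 one of 0.14 ± 0.08 (SE), with reads in 3 P16 libraries and none in NP16.

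Over the cycle, miR-1271 was lowest on Day 16. In heifers 16, 18, 20, 21, 22, 25, 34 and 35 it was at 3.07, 5.45, 2.77, 2.48, 4.06, 5.80, 8.89 and 18.0 RPMM in NP16. In the same heifers it was at 6.07, 4.37, 4.19, 9.19, 34.3, 24.1, 15.1 and 33.7 RPMM in NP8. It was lower on Day 16 in 7 of the 8, the exception being heifer 18, and the ranges overlapped. The log2 fold change for NP16 vs NP8 was -1.11 ± 0.44 (SE), and -1.06 ± 0.31 (SE) with the heifer as a block. Without each heifer in turn it was between -1.34 and -0.83, the latter without heifer 22, which had the highest NP8 value. miR-1271 passed the filter only through NP8, so its differences between NP8 and the other days are a description and no test of a change.

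The NP0 levels of miR-1271 were 16.2, 14.5, 2.49, 18.3, 5.15, 5.46, 4 and 10.2 RPMM in those heifers. Against them NP8 was higher in 5 of 8 (0.64 ± 0.46, log2 fold change and SE), and NP16 was higher in 4 of 8 and lower in 4, at -0.45 ± 0.44 (log2 fold change and SE). Heifers therefore differed in direction between Day 0 and the later days. The comparisons P16 vs NP16, NP16 vs NP8 and NP16 vs NP0 share the NP16 libraries.

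The red blood cell list had its highest median where miR-1271 had its lowest. Its 6 miRNAs summed to a median of 250757 RPMM in NP16 (range 122432 to 412355), against 154228 RPMM in NP8 (range 87773 to 307548). In P16 their median was 143994 RPMM (range 108303 to 326435), against the same 250757 RPMM in NP16. None of the 6 was called for NP16 vs NP8, where all 6 had fold changes above 0 with a median of 0.37 on the log2 scale, beside 0.02 over all 214 miRNAs. For P16 vs NP16, 0 of the 6 were above 0 (median -0.35), and for NP16 vs NP0 all 6 were (median 0.44), again beside 0.02 and with 0 called. Of the 6, miR-486 had the highest mean, at 146354 RPMM, and miR-92a the next, at 24911 RPMM. The part of this list in the low NP16 values of miR-1271 was not tested.

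**Figure D4:**
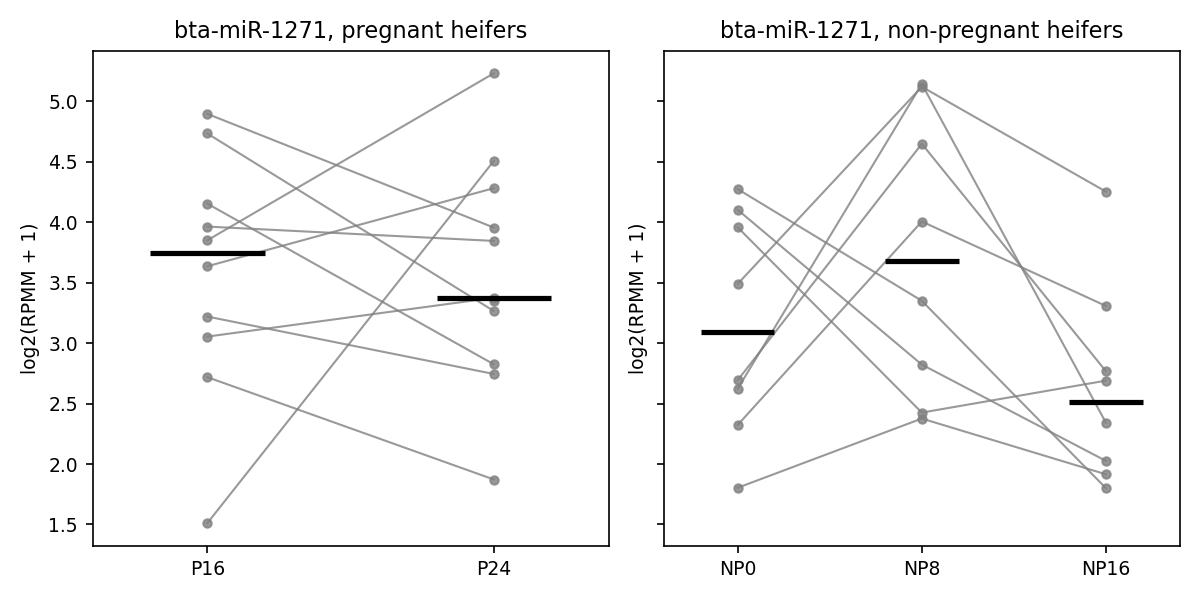
Level of miR-1271 as log2(RPMM + 1) on each day in pregnant heifers (left) and non-pregnant heifers (right). Grey points joined by lines are a heifer and black bars are medians. Between NP8 and NP16 the lines run down in 7 of 8 heifers, while between P16 and P24 they cross in both directions.

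miR-182 and miR-183 showed no difference over the cycle beyond its SE. For miR-182 the log2 fold change was -0.19 ± 0.26 (SE) for NP8 vs NP0, 0.11 ± 0.22 (SE) for NP16 vs NP8 and -0.06 ± 0.26 (SE) for NP16 vs NP0. It was higher in 5, 3 and 3 of the 8 heifers in these comparisons. Without heifer 22, which had the high NP0 value, both NP8 vs NP0 and NP16 vs NP0 changed sign, to 0.18 each. For NP16 vs NP8 the difference of mean log2(RPMM + 1) had the other sign, at -0.06 ± 0.21 (SE). For miR-183 the same differences were -0.08 ± 0.24 (SE) for NP8 vs NP0, 0.17 ± 0.26 (SE) for NP16 vs NP8 and 0.09 ± 0.26 (SE) for NP16 vs NP0. Each was smaller than the SD between heifers. miR-96 gave -0.25 ± 0.43 (SE) for NP8 vs NP0, -0.27 ± 0.13 (SE) for NP16 vs NP8 and -0.52 ± 0.41 (SE) for NP16 vs NP0. Without heifer 21 these were 0.20, -0.31 and -0.11, so the first changed sign. They rest on 9 reads in NP8, 52 in NP0 and 0 in NP16. All SEs in this paragraph are unpaired, although the same 8 heifers gave the 3 days.

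**Figure D5:**
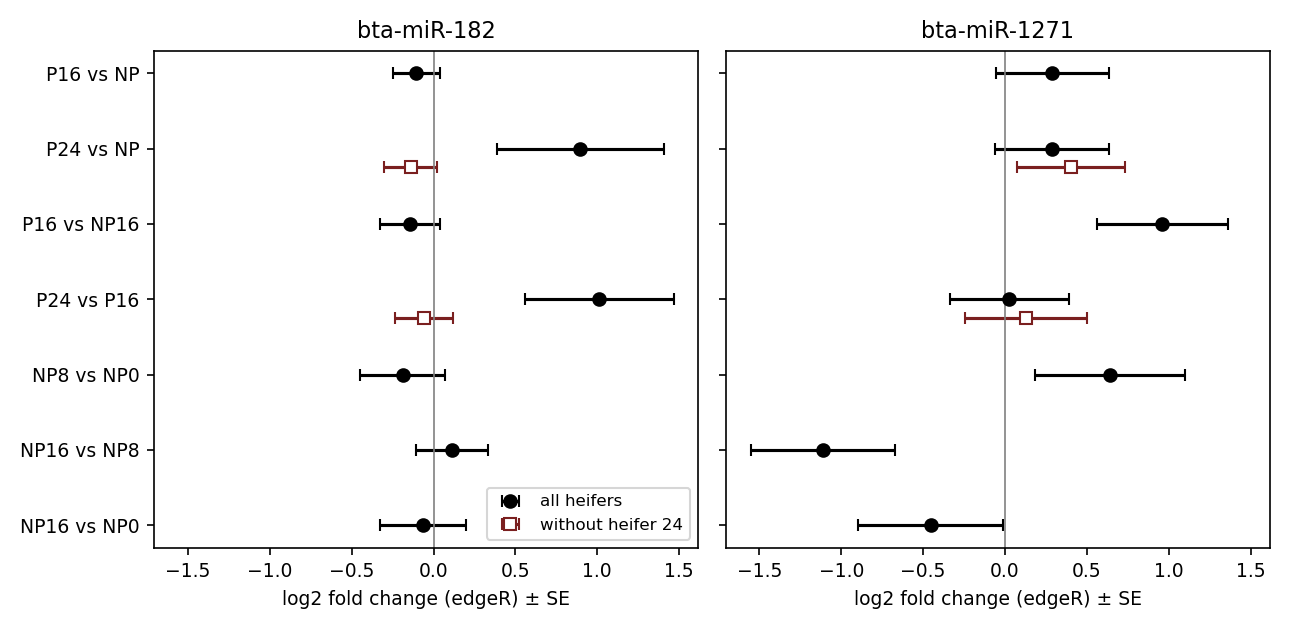
Log2 fold change from edgeR, with SE, of miR-182 (left) and miR-1271 (right) in the 7 comparisons. Filled circles use all heifers and open squares leave out heifer 24. For miR-182 the P24 comparisons lie at 0.90 and 1.01 with all heifers and at -0.14 and -0.06 without heifer 24, while miR-1271 lies at 0.96 for P16 vs NP16 and at -1.11 for NP16 vs NP8.

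Lists of other cell classes are given for reference, beside the 0.935% of all 214 called for P16 vs NP and the 0% called otherwise, so that nothing particular to a list is read from a count of 0. Of the epithelial list, 4 of 6 rows were tested and 0 were called in any comparison by edgeR. Of the neural and sensory list, 3 of 12 rows were tested and 0 were called. The 6 leukocyte miRNAs were all tested and 0 were called. For P24 vs NP their median log2 fold changes were -0.01, 0.18 and -0.01, beside 0.02 over all 214 miRNAs. The 2 miRNAs called for P16 vs NP were both of the muscle list, of which 3 of 7 were tested, and both were lower in P16.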

How the data were processed

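Small RNA from plasma of 19 heifers was sequenced (TRIzol LS, Illumina TruSeq small-RNA kit). The deposited table of counts gives whole reads for each mature miRNA name, which the authors obtained by trimming, alignment to UMD 3.1 with sRNAtoolbox and matching to bovine and then human miRBase entries with a mismatch allowed, so closely similar miRNAs may share reads. The deposited RPM values (called RPMM in the study) are the authors' division of these counts by the mapped reads of each library. Of the columns of values, 0 were left unmapped. Mature positions come from the deposited table. No sequences are printed, and the search for other miRNAs with the same seed was not made.

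Counts were fitted in edgeR 4.0.16 (R 4.3.3; TMM, glmQLFit, glmQLFTest, Benjamini-Hochberg over 214 miRNAs, false discovery rate 0.1). SEs were taken from the fold change and the F statistic. For NP, the counts of 3 libraries per heifer were summed and RPM averaged (n = 8). Groups came from the labels. Differences used log2(RPM + 1), with a pseudocount of 1. Main fits and differences were unpaired, also between days of the same heifers, unless a block or pairing is named. Scripts were tested on simulated data. Python 3.11.15, pandas 2.3.3, numpy 2.4.6, scipy 1.17.1 and matplotlib 3.10.9 were used. List names matched a row with or without its arm, and a row with joined names by either name.

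The members, lists, comparisons and alternatives were chosen with earlier results of these data known. Named miRNAs were the members, the 5 most like miR-182 and miR-1271 (the members with a median of at least 25 reads), the 10 with the largest ratio in the library that stood apart for miR-182, and list members a result turned on. Alternatives were DESeq2 1.42.0, limma 3.58.1 on log2(RPM + 1) and log2(RPM + 0.1), library totals, mapped reads and DESeq2 size factors for scaling, a robust fit, every miRNA unfiltered or a filter at 100 RPM, a false discovery rate of 0.05, the left-out library kept, the heifer as a block, and each heifer left out. Libraries with the same number come from the same heifer by label. Deviations from group means correlated within heifers with a median of 0.43 for P24 and P16 (over 0.1 in 9 of 10), 0.23 for NP8 and NP0 (7 of 8), 0.44 for NP16 and NP8 (8 of 8) and 0.39 for NP16 and NP0 (8 of 8). Sequencing batches are not given in the sources used here. Correlations between libraries were 0.974 to 0.997, and 0 pairs were identical.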

Additional observations from a re-analysis of the deposited data

Results flagged for a closer look

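Single libraries stood far from the rest of their group for all 4 members. Of 19 sets of 8 or 10 values examined, 5 held such a value. The rule flags about 1 in 20 independent sets of normally distributed values. The sets here are not independent, since NP averages NP0, NP8 and NP16. The same miR-96 reads of heifer 21 were flagged in both NP0 and NP. RPM values are also skewed, so no excess over chance is read from the 5. P24, with 11 libraries, is too large for this check, so the library of heifer 24 is not among them.

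miR-182 was at 111.43 RPM in the NP0 library of heifer 22, where the other 7 heifers were at or below 58.3 RPM. That library was also high in muscle miRNAs, with a list sum of 2455 RPM, the highest of NP0, and the part of these in its miR-182 value was not tested. Without it, NP0 averaged 38.6 ± 12.4 RPM (SD, n = 7).

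miR-183 was at 9.63 RPM in the P16 library of heifer 14, on 32 reads, beside 64.7 RPM of miR-182, which was the highest of P16 too. Both cluster members were thus high in the same library.

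miR-96 was at 9.46 RPM in the NP0 library of heifer 21, which alone put the NP average of that heifer at 3.15 RPM. The other 7 NP0 libraries were at 0 to 0.38 RPM.

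miR-1271 was at 18.04 RPM in the NP16 library of heifer 35, the next value being 8.89 RPM. The same heifer was also high on Day 8, at 33.7 RPM.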

How the results depend on the processing

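With each heifer left out in turn, 178 of 180 log2 fold changes of miR-182 and miR-1271 moved by less than the SD between heifers. All 360 differences of mean log2(RPM + 1) did so too, but for them this was fixed in advance. Leaving out a single heifer from groups of 8 to 11 cannot move a mean by as much as that SD. These 360 therefore say nothing of stability: for miR-182 the P24 vs NP difference was 0.136, and -0.228 without heifer 24. Under the other alternatives, 124 of 126 fold changes and 65 of 68 differences moved by less than that SD. The exceptions were these. For miR-182, leaving out a heifer gave log2 fold changes of -0.14 to 0.999 for P24 vs NP and of -0.057 to 1.15 for P24 vs P16, the lowest in each case without heifer 24. DESeq2, which by default replaces counts it takes as outlying in groups of this size, gave -0.11 for P24 vs NP and -0.036 for P24 vs P16. For miR-96, a pseudocount of 0.1 gave differences of -0.756 for P16 vs NP, 0.679 for P16 vs NP16 and -1.16 for NP16 vs NP8, since most of its values are 0.

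The number of miRNAs called among all tested also changed. For P16 vs NP, 2 were called by edgeR, 3 with no filter, 1 with a filter at 100 RPM, and 0 with the P16 library of heifer 28 kept. For P24 vs NP, 0 to 2 were called with a heifer left out, with 2 without heifer 24. For P16 vs NP16, 1 was called by DESeq2, and 0 to 1 with a heifer left out, with 1 without heifer 16 or heifer 29. For NP8 vs NP0, 1 was called by DESeq2. For NP16 vs NP0, 1 was called with library totals, 3 by DESeq2 and 1 with no filter. The cause of these changes was not tested.

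With the heifer as a block, the paired log2 fold changes were 0.20 for miR-182 and -0.05 for miR-1271 in P24 vs P16, and the block changed no call of a member. Library totals in place of TMM moved the median of all miRNAs to 0.18 for P16 vs NP16, -0.15 for NP16 vs NP8 and -0.21 for NP16 vs NP0. miR-182 then had 0.04 for P16 vs NP16 and -0.05 for NP16 vs NP8, of the other sign than with TMM, and miR-1271 had 1.14 and -1.34. A filter at 100 RPM left out both members, so it gave no value for them. Depth limited miR-96 and, in the shallower libraries, miR-183.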
